A study of Mus musculus with 6 samples.

Results

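The 10 genes described here are 8 inflammatory CC chemokines, namely Ccl2, Ccl7, Ccl12, Ccl3, Ccl4, Ccl5, Ccl6 and Ccl9, and 2 of their receptors, Ccr1 and Ccr2. They were taken by symbol from the gene lists of 6 single-cell RNA-seq libraries of mouse lung. All 10 were listed in all 6 libraries, among 20927 genes listed in every library and 29492 listed in at least 1. The mice were male C57BL/6J animals aged 12 weeks, and lungs were taken on day 3. There were 3 groups of 2 mice. In the first, here SLC+LPS, an SLC-Gq activation was given 7 times together with LPS. The second received LPS alone at 1 mg/kg, and the third received PBS. LPS is lipopolysaccharide, a bacterial cell wall component that provokes lung inflammation, and the SLC is the subcoeruleus nucleus of the brainstem according to the title. Gq stands in the labels without further description. Whether the other 2 groups carried any matching construct, and how the 7 activations were timed against LPS, are points that the labels leave unsaid. A group with SLC activation and no LPS was not analysed here, so a difference from PBS in the SLC+LPS mice cannot be split between the 2 treatments.

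CC chemokines are small secreted proteins that draw leukocytes along a concentration gradient by way of G protein-coupled receptors. Ccl2, Ccl7 and Ccl12 are ligands of Ccr2, the receptor that brings Ly6C-high monocytes out of the bone marrow and into inflamed lung. Ccl3 and Ccl5 act on Ccr1 among other receptors, Ccl4 is a close relative of Ccl3, and Ccl6 and Ccl9 are Ccr1 ligands found in rodents. In the mouse these ligands lie in a pair of clusters on chromosome 11. In RefSeq's gene order Ccl2, Ccl7, Ccl11, Ccl12 and Ccl8 follow each other, as do Ccl5, Ccl9, Ccl6, Ccl3 and Ccl4, while Ccr1 and Ccr2 lie on chromosome 9. Since these genes are related to their neighbours, and the labels state no rule for shared reads or for strand, some reads may have been counted for a neighbour, which was not tested.

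Each library held 11608 to 13710 cells after filtering and 26900471 to 43282030 UMIs (counted transcript molecules) in those cells. Cells were placed in classes by marker genes that include none of the 10 members, and 12 classes had at least 20 cells in each library. Among the 10 genes that led each of these classes in each group, 2 to 7 were its own markers and at most 1 was a marker of another class. Cells placed in the club class of PBS lungs carried the pan-leukocyte gene Ptprc at 525 CPM (the gene's UMIs per 1000000 UMIs of the cells named), against 639 CPM over all kept cells, and are not read as club cells. LPS 2 stood apart from LPS 1. Its cells had a median of 2606 UMIs, against 1134 to 1748 in the other libraries, and nonclassical monocytes made up 5.75% of its cells, against 0.178% to 1.35% elsewhere. Its classes also held less free RNA, an estimated 3.01% to 6.61% of their UMIs in the 10 non-epithelial classes, against 9.91% to 60% in the other libraries. Tests of LPS against PBS are therefore also given without LPS 2, and since that library also enters the shared estimate of spread, so are those of SLC+LPS where its loss moves a call. Cells with markers of a second lineage made up 10.4% to 12.8% of kept cells in SLC+LPS lungs, 9.65% to 14.4% in LPS lungs and 29.3% to 40.4% in PBS lungs, and doublets were not removed.

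Over all kept cells of a lung, Ccl9 and Ccr1 were higher in LPS than in PBS lungs, and Ccl3, Ccl9 and Ccr1 were higher in SLC+LPS than in PBS lungs. Ccl3, also called MIP-1 alpha, attracts neutrophils and monocytes, and it had 7843 and 5551 CPM in SLC+LPS, 6280 and 2012 CPM in LPS, and 1304 and 1087 CPM in PBS lungs. All 4 treated lungs were above both PBS lungs, and LPS 2 was the lowest of the 4. On a log2 scale Ccl3 was 2.85 ± 0.55 (SE) higher in SLC+LPS than in PBS lungs (adjusted p = 0.0318, edgeR quasi-likelihood test), while its difference of 2.18 ± 0.53 between LPS and PBS lungs did not pass (adjusted p = 0.0569). Without LPS 2 that difference was 2.80 (adjusted p = 0.0118). Ccl9, also called MIP-1 gamma, had 796.7 and 557.8 CPM in SLC+LPS, 438.4 and 645.4 CPM in LPS, and 235.1 and 226.1 CPM in PBS lungs. The groups treated with LPS did not overlap PBS, but they overlapped each other. Ccl9 was 1.92 ± 0.27 higher in SLC+LPS (adjusted p = 0.0205) and 1.60 ± 0.27 higher in LPS lungs (adjusted p = 0.0272; 1.33 and 0.0249 without LPS 2), both against PBS by edgeR. Ccr1, the receptor for several of these ligands, had 222 and 287.7 CPM in SLC+LPS, 273.5 and 245 CPM in LPS, and 136.4 and 98.11 CPM in PBS lungs. Again every treated lung was above both PBS lungs. Its log2 differences from PBS were 1.51 ± 0.27 in SLC+LPS (adjusted p = 0.0287) and 1.52 ± 0.27 in LPS lungs (adjusted p = 0.0312; 1.63 and 0.0263 without LPS 2), from edgeR. The fits scale libraries by TMM, which sets the log2 differences from PBS over all kept cells about 0.38 above those of plain log2 CPM in both groups. The called genes did not overlap PBS on plain CPM either.

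These counts are to be read against all genes. In LPS against PBS lungs, 2 of 10 members passed, both higher, where 7.84% of 17900 genes passed in either direction and 3.96% were higher. In SLC+LPS against PBS lungs, 3 of 10 passed, all higher, where 12.4% of genes passed and 5.2% were higher. The median log2 difference of the members was 0.96 for LPS and 0.51 for SLC+LPS, against -0.02 and -0.01 over all genes. Neutrophils, which held 40.5% and 24.9% of the Ccl3 UMIs in PBS lungs, made up 54.7% and 49.0% of kept cells in SLC+LPS, 45.6% and 38.3% in LPS, and 16.8% and 13.2% in PBS lungs, and the part of this shift in the whole-lung values was not tested. In sums over a lung, more cells of a type and more RNA per cell cannot be told apart. The calls in SLC+LPS lungs did not outlast the loss of SLC+LPS 1, SLC+LPS 2, PBS 1 or PBS 2, which brought the adjusted p of Ccl3 to 0.102 to 0.188, of Ccl9 to 0.0641 to 0.159 and of Ccr1 to 0.0641 to 0.196. For LPS, leaving out PBS 1 or PBS 2 ended both calls, with adjusted p of 0.198 and 0.226 for Ccl9 and of 0.172 and 0.254 for Ccr1.

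**Figure D1:**
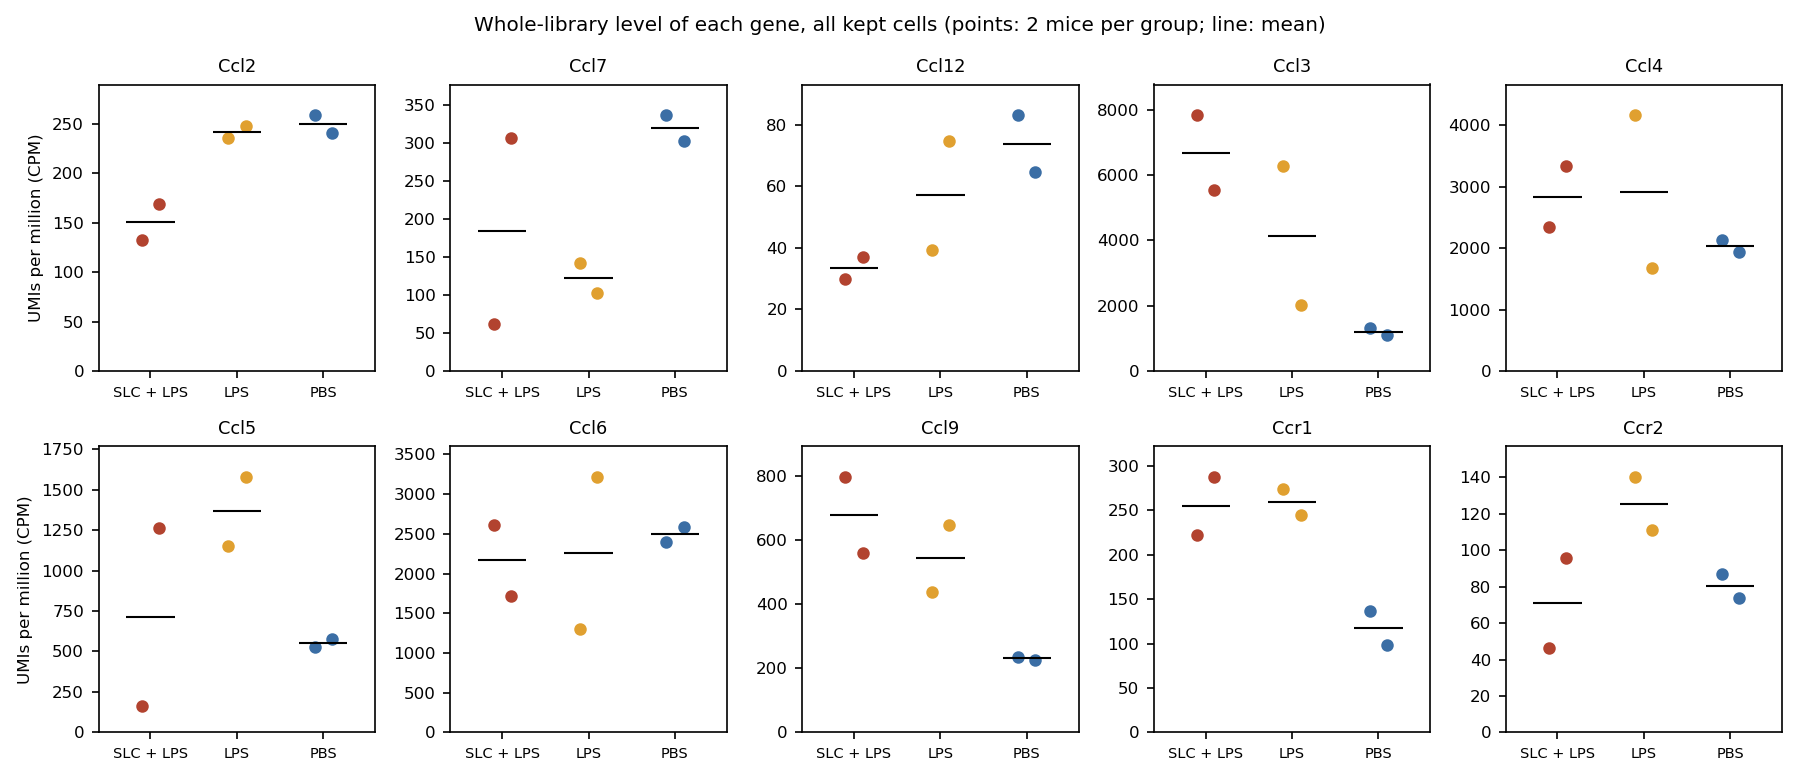
Level of each of the 10 genes over all kept cells of a lung, in CPM on a linear axis from 0, with each point a mouse and each short line a group mean, for SLC+LPS, LPS and PBS (2 mice each). Ccl3, Ccl9 and Ccr1 lie above both PBS lungs in all 4 treated lungs, while Ccl5 lies at 162.3 CPM in SLC+LPS 1 and at 1266 CPM in SLC+LPS 2.

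The other 7 genes did not pass over all kept cells in any comparison in edgeR with low counts filtered and all 6 libraries in the fit. With no filter on low counts, edgeR called Ccl4, Ccl5 and Ccr2 higher and Ccl7 lower for LPS against PBS. In that fit Ccl4 and Ccl5 also passed for SLC+LPS against PBS. The shares of all genes that passed without the filter are not given here. Ccl5, a T cell and monocyte attractant also called RANTES, had 162.3 and 1266 CPM in SLC+LPS, 1150 and 1580 CPM in LPS, and 529.7 and 574.4 CPM in PBS lungs. The 2 SLC+LPS lungs stood on either side of PBS, and both LPS lungs were above it. The log2 difference of LPS from PBS was 1.68 ± 0.84 (edgeR adjusted p = 0.247) and 1.46 without LPS 2 (0.369), and it passed without SLC+LPS 1 (0.0402) or SLC+LPS 2 (0.0433). Ccl7, a ligand of Ccr2, spread in the same way, with 61.42 and 306.4 CPM in SLC+LPS, 141.6 and 103 CPM in LPS, and 337 and 303 CPM in PBS lungs. Both LPS lungs were below both PBS lungs, while SLC+LPS 2 lay between the 2 PBS lungs. Ccl2 had 132.7 and 168.7 CPM in SLC+LPS, 236 and 248.3 CPM in LPS, and 258.9 and 241.1 CPM in PBS lungs, so that SLC+LPS lay below the other 2 groups. Ccl12 lay between 29.8 and 36.84 CPM in SLC+LPS, between 39.37 and 74.74 CPM in LPS and between 64.53 and 83.04 CPM in PBS lungs. Ccl4 had 2336 and 3338 CPM in SLC+LPS, 1676 and 4165 CPM in LPS, and 1942 and 2129 CPM in PBS lungs, with SLC+LPS above PBS and LPS on either side of it. For LPS against PBS, the edgeR difference of Ccl4 was 0.90 with all libraries (adjusted p = 0.252) and 1.44 without LPS 2. With all libraries and no filter on low counts it passed (edgeR adjusted p = 0.00399). Ccr2 had 46.3 and 95.54 CPM in SLC+LPS, 110.8 and 140.3 CPM in LPS, and 73.86 and 86.75 CPM in PBS lungs, with LPS above the other groups. Without LPS 2 the differences of Ccl2, Ccl7, Ccl12, Ccl6 and Ccr2 between LPS and PBS did not pass either (edgeR adjusted p from 0.127 to 0.592). Ccl6 ranged from 1304 to 3219 CPM, and its groups overlapped.

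Promoter sequence is shown for the 3 genes that passed over whole lungs and for Ccr2, the receptor that passed in monocytes, to set what lies just before each gene's start beside its response. The sequences are RefSeq's, on build GRCm38.p6, and give the 250 bases before the start, read 5′ to 3′ on the gene's own strand. They are chr11:83649379-83649628 (minus strand) for Ccl3, chr11:83578637-83578886 (minus strand) for Ccl9, chr9:123968693-123968942 (minus strand) for Ccr1 and chr9:124101933-124102182 (plus strand) for Ccr2. RefSeq windows were at hand for 6 of the 10 genes, the other 2 being Ccl6 and Ccl12. Capitals mark matches on either strand to an NF-kB pattern (GGG, any 5 bases, CC), an AP-1 pattern (TGANTCA), the PU.1 core (GAGGAA) or an interferon response pattern (GAAA, any 2 bases, GAAA), none of which overlapped another here.
Ccl3: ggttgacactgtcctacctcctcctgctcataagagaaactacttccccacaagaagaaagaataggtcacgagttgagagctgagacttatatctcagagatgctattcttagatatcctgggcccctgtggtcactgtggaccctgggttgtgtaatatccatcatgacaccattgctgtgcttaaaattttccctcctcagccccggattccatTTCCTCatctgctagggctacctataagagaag
Ccl9: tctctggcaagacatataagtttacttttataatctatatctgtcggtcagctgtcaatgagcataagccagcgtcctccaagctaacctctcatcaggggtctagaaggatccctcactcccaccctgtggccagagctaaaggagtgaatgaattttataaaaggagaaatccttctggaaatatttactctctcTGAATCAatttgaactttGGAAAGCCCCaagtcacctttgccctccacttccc
Ccr1: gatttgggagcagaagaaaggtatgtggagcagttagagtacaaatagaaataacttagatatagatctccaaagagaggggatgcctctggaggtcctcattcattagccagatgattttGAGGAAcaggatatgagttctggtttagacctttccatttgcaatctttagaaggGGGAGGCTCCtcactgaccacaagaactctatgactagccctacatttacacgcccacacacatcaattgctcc
Ccr2: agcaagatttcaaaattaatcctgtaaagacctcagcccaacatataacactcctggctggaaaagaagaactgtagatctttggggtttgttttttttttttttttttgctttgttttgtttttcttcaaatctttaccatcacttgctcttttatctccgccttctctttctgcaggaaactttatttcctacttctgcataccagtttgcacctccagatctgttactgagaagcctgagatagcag
Ccl9 held an NF-kB match beginning 35 bases and an AP-1 match beginning 53 bases before the start. Ccr1 held an NF-kB match at 74 and a PU.1 core at 129 bases, and Ccl3 a PU.1 core at 33 bases. Ccl12 held a PU.1 core at 130 bases, and neither Ccl6 nor Ccr2 held a match in this window. Such patterns are common. Of 32851 windows of this length, 45.8% held the NF-kB pattern, 6.75% the AP-1 pattern, 23.3% the PU.1 core and 2.98% the interferon response pattern. A match describes letters and does not show that a factor binds.

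In PBS lungs the monocyte attractants Ccl2, Ccl7 and Ccl12 came mainly from C1q macrophages, the resident type marked by complement C1q genes. There these cells held 69.2% and 53.9% of the Ccl2 UMIs, 72.0% and 54.4% of the Ccl7 UMIs and 79.9% and 68.7% of the Ccl12 UMIs, while making up 4.20% and 3.98% of the cells. In treated lungs the Ccl2 UMIs were spread wider. C1q macrophages held 23.7% and 26.0% of them in SLC+LPS and 19.8% and 32.9% in LPS lungs. Ly6c2 monocytes and macrophages, the recruited cells of acute inflammation, held 23.7% and 24.8% in SLC+LPS, 21.8% and 21.1% in LPS, and 0.35% and 0.16% in PBS lungs. That class made up 6.34% and 12.1% of cells in SLC+LPS, 9.45% and 7.42% in LPS, and 0.710% and 0.595% in PBS lungs.

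**Figure D2:**
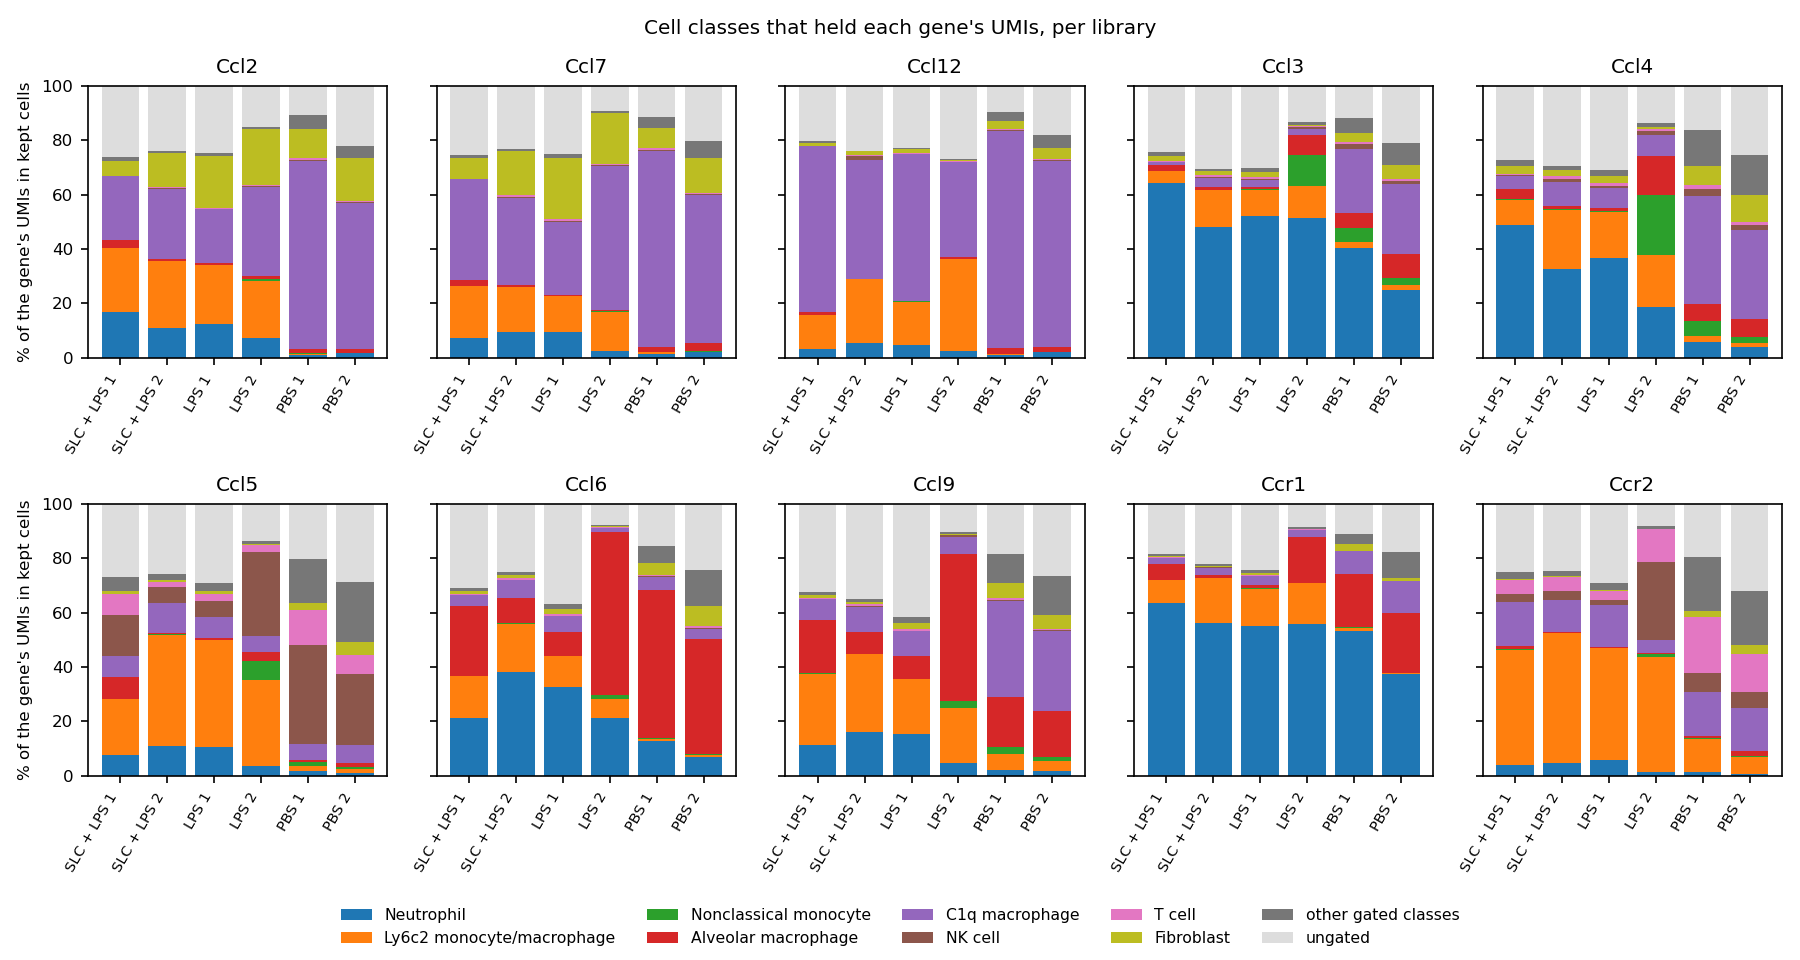
Share of each gene's UMIs held by each marker-gated class, in percent of the gene's UMIs over all kept cells, for each lung of SLC+LPS, LPS and PBS. C1q macrophages held 69.2% and 53.9% of Ccl2 UMIs in PBS lungs and 19.8% to 32.9% in the 4 treated lungs, and neutrophils held 48.1% to 64.4% of Ccl3 UMIs in treated lungs.

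Within Ly6c2 monocytes and macrophages Ccl2 was higher after LPS. The class was led by different genes in the groups, by Ms4a4c, Arg1, Ly6c2, Fn1 and F13a1 in SLC+LPS, by Vcan, F13a1, Ms4a4c, Ly6c2 and Msr1 in LPS, and by Ms4a4c, Ly6c2, Ly6a2, Plac8 and Ppbp in PBS lungs, so that a changed makeup of the class and a changed level per cell cannot be told apart. It had 203.5 and 191.9 CPM in SLC+LPS, 283.6 and 381.9 CPM in LPS, and 83.98 and 48.75 CPM in PBS lungs, where the class counted only 90 and 74 cells. The 3 groups did not overlap, with LPS highest and PBS lowest. Against PBS, Ccl2 was 2.61 ± 0.43 higher on the log2 scale in LPS (edgeR adjusted p = 0.0193; 2.23 and 0.00528 without LPS 2), the only member of the 10 to pass in this class, where 0.687% of genes passed and 0.535% were higher. The median of all genes tested in the class lay at 0.23 in the same fit and at 0.12 with DESeq2's size factors, so the gain is to be read relative to that shift. Without PBS 1 or PBS 2 the adjusted p was 0.236 and 0.507, and with free RNA subtracted it was 0.210, so the call ended in each case. The difference of 1.72 ± 0.42 between SLC+LPS and PBS did not pass (adjusted p = 0.0897, edgeR), in a fit whose median over all genes was 0.18. With all 6 libraries it passed by DESeq2 (adjusted p = 0.0169), and in edgeR with no filter on low counts (0.00236) or with the replicate block (0.0246). Free RNA would account for an estimated 9.72% and 16.0% of this Ccl2 level in SLC+LPS, 14.8% and 1.93% in LPS, and 39.8% and 81.9% in PBS lungs.

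Few of these monocytes carried the transcript. After thinning every cell to 500 UMIs, which left out no cell, Ccl2 was found in 6.58% and 6.70% of them in SLC+LPS, 9.03% and 10.8% in LPS, and 3.33% and 1.35% in PBS lungs. Before thinning the shares were 28.3% and 25.3% in SLC+LPS, 34.3% and 29.3% in LPS, and 20% and 13.5% in PBS lungs. The median depth per cell was 3410 to 6347 UMIs in SLC+LPS, 4906 to 6499 in LPS, and 2936 to 3840 in PBS lungs. B cells, a class not known as a source of Ccl2, showed it in 1.11% and 1.66% of thinned cells in SLC+LPS, 1.90% and 0.593% in LPS, and 1.02% and 0.804% in PBS lungs, at median depths of 976 to 1462 UMIs. The PBS shares rest on 3 of 90 and 1 of 74 cells, with exact Clopper-Pearson 95% intervals of 0.693% to 9.43% and 0.0342% to 7.30% that hold the B cell background and reach into the treated range. Such intervals cover counting error only. The 10% of Ly6c2 monocytes and macrophages with the most Ccl2 held 84.8% and 76.0% of the class's Ccl2 UMIs in SLC+LPS, 78.1% and 81.3% in LPS, and 70.0% and 81.8% in PBS lungs, so its transcripts sat in a minority of cells in every lung.

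In C1q macrophages all 3 monocyte attractants were lower in both SLC+LPS lungs than in either PBS lung. No difference passed in edgeR with low counts filtered and all 6 libraries in the fit. The class was led by Ccl8, Cd163, Folr2, C1qc and Fcrls in SLC+LPS and by Ccl8, Cd163, C1qc, Folr2 and Mmp13 in LPS lungs. In PBS lungs it was led by Cd163, F13a1, Ms4a7, C1qc and Cxcl13. A changed makeup of the class and a changed level per cell therefore cannot be told apart. Ccl2 there had 529.8 and 656.6 CPM in SLC+LPS, 726 and 2498 CPM in LPS, and 2468 and 2062 CPM in PBS lungs. Both SLC+LPS lungs and LPS 1 were below PBS, while LPS 2 was just above both. The log2 difference from PBS was -1.88 ± 0.53 for SLC+LPS (adjusted p = 0.0999) and -0.43 ± 0.51 for LPS by edgeR, in a class where 2.48% and 2.03% of genes passed in the 2 comparisons and 0 of 10 members did. At an unadjusted p under 0.05 there were 5 and 3 members, and DESeq2 called 3 and 0. Shares of all genes at that threshold and by DESeq2 are not given here, so these counts cannot be set against a background. Whether Ccl2 passed depended on the LPS libraries. For SLC+LPS against PBS its adjusted p was 0.00505 without LPS 1 and 0.00434 without LPS 2, and for LPS against PBS the difference without LPS 2 was -1.60 (adjusted p = 0.0280, edgeR). Ccl12, also called MCP-5, had 305.2 and 241.3 CPM in SLC+LPS, 330 and 790.8 CPM in LPS, and 914.5 and 704.1 CPM in PBS lungs, and differed from PBS by -1.53 ± 0.42 in SLC+LPS (adjusted p = 0.0957; 0.00830 without LPS 1 and 0.00698 without LPS 2, edgeR) and by -0.47 in LPS (adjusted p = 0.581; -1.25 and 0.0510 without LPS 2). The SLC+LPS and PBS lungs did not overlap, and LPS 2 again sat with PBS. For SLC+LPS against PBS with all 6 libraries, Ccl12 passed by DESeq2 (adjusted p = 0.0164) and in edgeR with no filter on low counts (2.38e-05). Ccl7, also called MCP-3, had 383.5 and 1469 CPM in SLC+LPS, 584.5 and 1667 CPM in LPS, and 3345 and 2618 CPM in PBS lungs, where PBS lay above all 4 treated lungs and the edgeR difference was -1.62 ± 0.69 for SLC+LPS (adjusted p = 0.220) and -1.34 for LPS (adjusted p = 0.341; -2.31 and 0.279 without LPS 2). By estimate, free RNA made up no more than 5.74% of any of these levels.

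C1q macrophages that held a Ccl2 UMI held Ccl7 more often than those that did not, in every lung. Ccl7 was found in 67.5% and 84.2% of Ccl2-positive cells in SLC+LPS, 66.8% and 82.4% in LPS, and 89.2% and 89.2% in PBS lungs. Among Ccl2-negative cells it was found in 22.0% and 42.4% in SLC+LPS, 26.1% and 46.2% in LPS, and 55.2% and 53.7% in PBS lungs. Positive cells were also deeper, as in SLC+LPS 1 with medians of 8728 UMIs against 7128, and the part of depth in this overlap was not tested. The thinned share of C1q macrophages with Ccl2 was 16.3% and 23.6% in SLC+LPS, 20.2% and 50.3% in LPS, and 49.4% and 46.3% in PBS lungs. Unthinned, it was 61.1% and 65.0% in SLC+LPS, 61.9% and 82.8% in LPS, and 82.0% and 78.2% in PBS lungs, at median depths of 6400 to 9034 UMIs in treated and 3307 to 4172 UMIs in PBS lungs.

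Fibroblasts were another source of Ccl2 and Ccl7, and the SLC+LPS lungs split there, while Ccl12 lay between 4.76 and 10.5 CPM in all 6 lungs. Ccl2 in fibroblasts had 98.55 and 441.9 CPM in SLC+LPS, 722 and 722.3 CPM in LPS, and 114.3 and 143.8 CPM in PBS lungs. Both LPS lungs were above every other lung, yet the log2 difference of 2.58 ± 0.67 from PBS did not pass (adjusted p = 0.394, edgeR; 2.64 without LPS 2). With all 6 libraries it passed by DESeq2 (adjusted p = 0.00415) and in edgeR with no filter on low counts (4.8e-09). Ccl7 followed with 64.11 and 1028 CPM in SLC+LPS, 514.7 and 276.4 CPM in LPS, and 104.6 and 143.7 CPM in PBS lungs, with SLC+LPS 1 the lowest and SLC+LPS 2 the highest of all 6. Of the fibroblasts' Ccl2 UMIs, 74.2% to 93.7% lay in the 10% of cells with the most.

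Ccl3 and Ccl4, a pair of related leukocyte attractants, shifted in source between PBS and treated lungs. Neutrophils held 64.4% and 48.1% of the Ccl3 UMIs in SLC+LPS, 52.2% and 51.5% in LPS, and 40.5% and 24.9% in PBS lungs. C1q macrophages held 1.28% to 3.55% of them in treated lungs and 23.6% and 25.5% in PBS lungs. For Ccl4, also called MIP-1 beta, neutrophils held 48.8% and 32.7% in SLC+LPS, 36.6% and 18.7% in LPS, and 5.81% and 4.03% in PBS lungs, while C1q macrophages held 5.03% to 9.0% in treated and 39.9% and 32.8% in PBS lungs.

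Within neutrophils no difference in Ccl3 passed in edgeR with low counts filtered and all 6 libraries in the fit. For SLC+LPS against PBS it passed with all 6 libraries by DESeq2 (adjusted p = 0.0487) and in edgeR with no filter on low counts (0.00697). Ccl3 in neutrophils had 16750 and 8885 CPM in SLC+LPS, 11270 and 3822 CPM in LPS, and 5293 and 4111 CPM in PBS lungs. Both SLC+LPS lungs and LPS 1 were above PBS, whereas LPS 2 was below it. The log2 differences from PBS were 1.32 ± 0.48 for SLC+LPS (adjusted p = 0.156) and 0.75 ± 0.47 for LPS (adjusted p = 0.426), from edgeR, so neither passed. For SLC+LPS the adjusted p was 0.0299 without LPS 1 and 0.0319 without LPS 2, and for LPS the difference without LPS 2 was 1.22 (adjusted p = 0.101). The median neutrophil carried 18 and 7 Ccl3 UMIs in SLC+LPS, 14 and 5 in LPS, and 5 and 3 in PBS lungs. Thinned to 500 UMIs, 91.6% and 84.3% of neutrophils held Ccl3 in SLC+LPS, 89.9% and 60.7% in LPS, and 70.1% and 64.8% in PBS lungs. Unthinned, 97.6% and 94.1% did in SLC+LPS, 98.1% and 84.7% in LPS, and 84.4% and 77.5% in PBS lungs, so LPS 2 was again near PBS. Endothelial cells, not known as a source, held it in 40.6% and 35.6% of thinned cells in SLC+LPS, 39.2% and 4.87% in LPS, and 6.19% and 6.92% in PBS lungs. Median depths were 1052 to 2219 UMIs in endothelial cells and 1044 to 2427 UMIs in neutrophils. The estimated part of free RNA in the neutrophil Ccl3 level was 2.77% to 11.2%.

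Ccl4 differed from PBS in opposite directions in neutrophils and C1q macrophages. Whether it passed depended on the method, the low-count filter and the LPS libraries in the fit. For SLC+LPS against PBS with all 6 libraries, Ccl4 passed by DESeq2 in neutrophils (adjusted p = 0.0353) and C1q macrophages (0.004). In edgeR with no filter on low counts it passed in both as well (0.00121 and 1.24e-07). For LPS against PBS, Ccl4 passed with no filter in neutrophils (0.00248) and C1q macrophages (0.000156), and by DESeq2 in neutrophils (0.0465). In neutrophils it had 3781 and 3630 CPM in SLC+LPS, 5240 and 1155 CPM in LPS, and 1240 and 1185 CPM in PBS lungs. In C1q macrophages it had 1978 and 4491 CPM in SLC+LPS, 4818 and 3836 CPM in LPS, and 11710 and 10110 CPM in PBS lungs. The treated lungs lay above PBS in neutrophils apart from LPS 2, and below PBS in C1q macrophages in every case. For SLC+LPS against PBS the log2 differences were 1.51 ± 0.52 in neutrophils (adjusted p = 0.144) and -1.70 ± 0.40 in C1q macrophages (adjusted p = 0.0718), and for LPS against PBS they were 1.43 ± 0.52 in neutrophils (adjusted p = 0.173) and -1.29 ± 0.40 in C1q macrophages (adjusted p = 0.139), all from edgeR. In neutrophils the LPS difference passed without LPS 2 (2.07, adjusted p = 0.00578), and the SLC+LPS difference passed without LPS 1 (0.00633) or LPS 2 (0.00728). In C1q macrophages the SLC+LPS difference passed without LPS 2 (0.0496), and the LPS difference did not (-1.14, adjusted p = 0.264). An estimated part of neutrophil Ccl4 was free RNA, 13.6% and 19.8% in SLC+LPS, 15.9% and 7.73% in LPS, and 38.6% and 43.0% in PBS lungs. A predicted Ccl4 isoform in RefSeq spans Ccl3 on the opposite strand, so that without strand some reads of the pair could be counted for either gene, which was not tested.

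More of the Ccl5 UMIs lay in Ly6c2 monocytes and macrophages in all 4 treated lungs than in PBS lungs, while the share in natural killer cells lay below both PBS lungs in 3 of them and between them in LPS 2. Natural killer cells, a known source, held 14.9% and 5.58% of its UMIs in SLC+LPS, 5.77% and 30.9% in LPS, and 36.4% and 26.4% in PBS lungs. Ly6c2 monocytes and macrophages held 20.4% and 41.2% in SLC+LPS, 39.3% and 31.8% in LPS, and 1.76% and 1.44% in PBS lungs. Within that class Ccl5 had 215 and 2396 CPM in SLC+LPS, 2495 and 3648 CPM in LPS, and 853.8 and 1028 CPM in PBS lungs. SLC+LPS 1 was the lowest of the 6 lungs, and the other 3 treated lungs were above PBS. For LPS against PBS the log2 difference of 2.03 did not pass (edgeR adjusted p = 0.457; 1.59 and 0.787 without LPS 2), but it passed without SLC+LPS 1 (0.00145) or SLC+LPS 2 (0.000351). Without SLC+LPS 2, Ccl5 passed as lower in SLC+LPS than in PBS (-1.92, adjusted p = 0.0275). The same library was lowest in C1q macrophages, where Ccl5 had 216.4 and 2102 CPM in SLC+LPS, 1419 and 2944 CPM in LPS, and 434 and 601.2 CPM in PBS lungs. In natural killer cells it had 6609 and 6258 CPM in SLC+LPS, 5266 and 10610 CPM in LPS, and 7314 and 9529 CPM in PBS lungs, and in T cells 866.4 to 1242 CPM in all 6. After thinning, 83.0% and 73.2% of natural killer cells held Ccl5 in SLC+LPS, 65.8% and 93.9% in LPS, and 93.0% and 96.4% in PBS lungs, against 0.362% to 6.85% of endothelial cells.

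In alveolar macrophages, the airspace-resident phagocytes, Ccl5 was higher in LPS than in PBS lungs at a low level. It had 134.3 and 264.9 CPM in SLC+LPS, 380.8 and 330.9 CPM in LPS, and 40.56 and 82.98 CPM in PBS lungs. The groups did not overlap, with LPS highest. The log2 difference of 2.76 ± 0.44 from PBS passed for LPS (edgeR adjusted p = 0.0203), while that of 1.84 ± 0.43 for SLC+LPS did not (adjusted p = 0.0632). Without LPS 2 the difference was 2.83 and no longer passed (adjusted p = 0.101), nor did it without LPS 1 (0.0535) or PBS 1 (0.109). Free RNA was estimated at 31.0% and 76.0% of this level in SLC+LPS, 44.7% and 16.3% in LPS, and 100% in both PBS lungs. The thinned share of cells with Ccl5 was 2.41% and 9.09% in SLC+LPS, 13.3% and 13.4% in LPS, and 1.35% and 3.91% in PBS lungs, the PBS values being close to the 2.70% and 3.55% of endothelial cells in the same lungs.

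Ccl9 was the member that passed most often in single classes. In alveolar macrophages it had 1634 and 1851 CPM in SLC+LPS, 1884 and 2380 CPM in LPS, and 378.5 and 372 CPM in PBS lungs. Every treated lung was at least 1634 CPM and both PBS lungs were under 400, so PBS stood well apart from the others. Ccl9 was 2.38 ± 0.25 higher on the log2 scale in SLC+LPS (adjusted p = 0.0131) and 2.74 ± 0.25 higher in LPS (adjusted p = 0.00605; 2.53 and 0.000135 without LPS 2) than in PBS, by edgeR. In this class 1 of 10 members passed for SLC+LPS against PBS, where 2.9% of genes passed and 1.6% were higher, and 2 of 10 for LPS against PBS, where 3.25% passed and 1.66% were higher. Without SLC+LPS 2, PBS 1 or PBS 2 the SLC+LPS difference had adjusted p of 0.0757, 0.0690 and 0.0667. The LPS difference passed with any single library left out. With free RNA subtracted both differences missed the threshold, with adjusted p of 0.0706 for SLC+LPS and 0.0655 for LPS.

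The rise was also seen in the share of alveolar macrophages with the transcript. Thinned to 500 UMIs, 47.6% and 45.5% held Ccl9 in SLC+LPS, 53.3% and 59.7% in LPS, and 13.8% and 11.9% in PBS lungs. Unthinned, 94.1% and 93.9% did in SLC+LPS, 95% and 95.4% in LPS, and 49.2% and 49.2% in PBS lungs. The treated cells were the deeper ones, with medians of 10570 to 13140 UMIs in SLC+LPS, 12310 to 12420 in LPS and 4488 to 5156 in PBS lungs, which thinning evens out. Endothelial cells showed Ccl9 in 4.35% and 4.11% after thinning in SLC+LPS, 1.35% and 0.739% in LPS, and 0.959% and 1.68% in PBS lungs. Free RNA made up an estimated 0.64% to 13.3% of the level. The class held 290 and 66 cells in SLC+LPS, 60 and 524 in LPS, and 666 and 614 in PBS lungs. For the smallest, the exact 95% interval of the thinned share was 33.1% to 58.2% in SLC+LPS 2 and 40% to 66.3% in LPS 1, against 11.3% to 16.7% in PBS 1 and 9.44% to 14.7% in PBS 2.

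In neutrophils Ccl9 was again higher in treated lungs. It had 300 and 301.5 CPM in SLC+LPS, 230.2 and 109.6 CPM in LPS, and 53.41 and 56.16 CPM in PBS lungs. The 3 groups did not overlap, in the order SLC+LPS, LPS and PBS from high to low. The log2 differences from PBS were 2.35 ± 0.35 in SLC+LPS (adjusted p = 0.0184) and 1.73 ± 0.34 in LPS (adjusted p = 0.0387; 2.03 and 0.00331 without LPS 2), by edgeR. In neutrophils Ccl9 was the only one of 10 members to pass in either comparison. For SLC+LPS 1.89% of genes passed and 0.836% were higher, and for LPS 2.09% passed and 1.07% were higher. Free RNA was estimated at 31.8% and 27.9% of this level in SLC+LPS, 29.0% and 18.7% in LPS, and 70.3% and 89.1% in PBS lungs. The thinned share was 8.83% and 7.48% in SLC+LPS, 5.15% and 3.17% in LPS, and 2.21% and 1.95% in PBS lungs, PBS lying close to endothelial cells at 0.959% and 1.68%. Leaving out either SLC+LPS or either PBS library ended the call for SLC+LPS (adjusted p 0.0780 to 0.218) and for LPS (0.0635 to 0.366), and the stricter cell filter (0.0511) and the gate margin of 0.2 (0.0553) also ended that for LPS. In Ly6c2 monocytes and macrophages Ccl9 overlapped between groups, with 1348 and 728.9 CPM in SLC+LPS, 491.9 and 961 CPM in LPS, and 1226 and 1099 CPM in PBS lungs.

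Ccl6, the other Ccr1 ligand of this pair, did not pass in any comparison in edgeR with low counts filtered and all 6 libraries in the fit. Alveolar macrophages held 25.6% and 9.16% of its UMIs in SLC+LPS, 8.57% and 59.9% in LPS, and 54.4% and 42.2% in PBS lungs. Its level there was 7004 and 6363 CPM in SLC+LPS, 5857 and 13200 CPM in LPS, and 11530 and 10590 CPM in PBS lungs. SLC+LPS 1, SLC+LPS 2 and LPS 1 lay below PBS, and LPS 2 lay above it. The log2 difference of LPS from PBS was 0.02 ± 0.36, and -0.72 without LPS 2 (edgeR adjusted p = 0.108). The 2 neighbours thus had different patterns in the same cells, Ccl9 passing and Ccl6 not, although the difference between the genes was not tested.

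**Figure D3:**
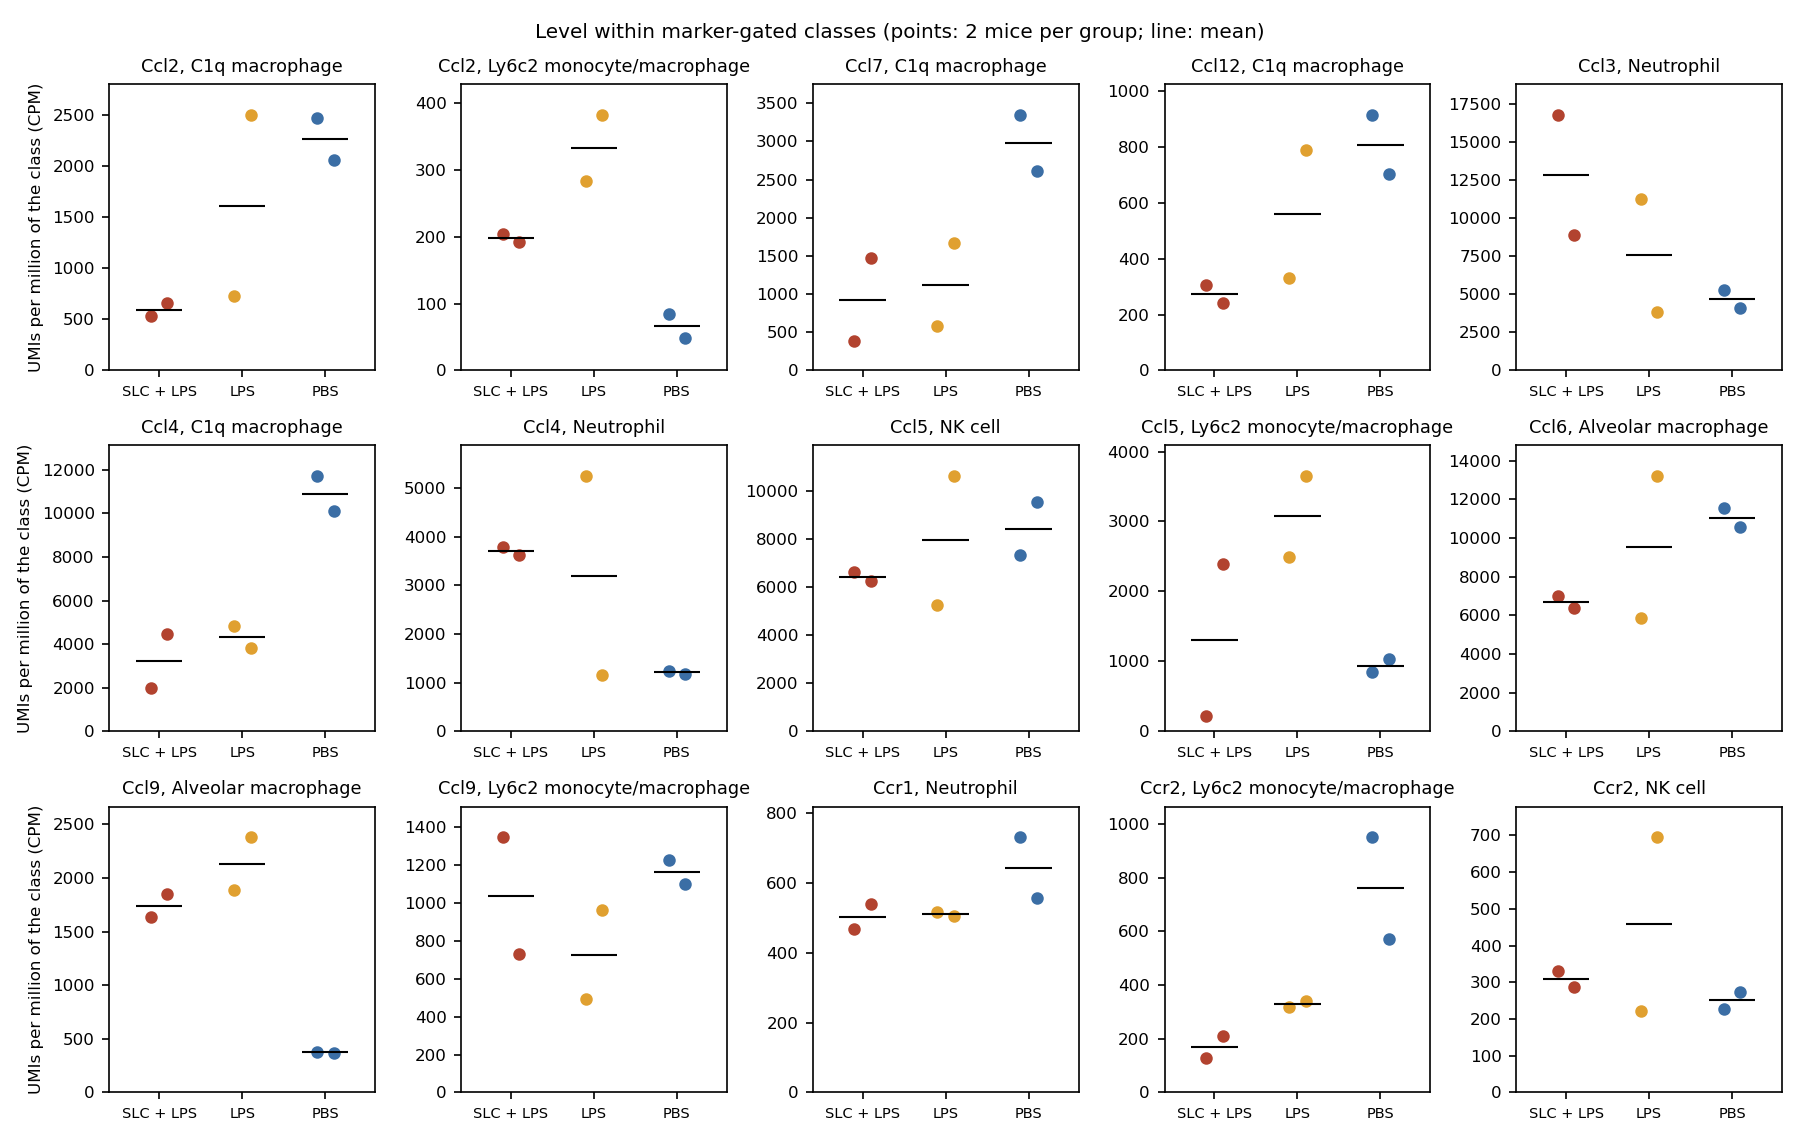
Level of selected genes within marker-gated classes, in CPM on a linear axis from 0, with each point a mouse and each short line a group mean, for SLC+LPS, LPS and PBS (2 mice each). Ccl9 in alveolar macrophages lies at 1634 to 2380 CPM in treated lungs and at 372 and 378.5 CPM in PBS lungs, and Ccr2 in Ly6c2 monocytes and macrophages lies below both PBS lungs in all 4 treated lungs.

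Ccr2, the receptor for Ccl2, Ccl7 and Ccl12, was lower in the Ly6c2 class of SLC+LPS than of PBS lungs, a class whose leading genes differed between the groups as given above, so that its makeup and the level per cell cannot be told apart. Ly6c2 monocytes and macrophages held 42.3% and 47.9% of its UMIs in SLC+LPS, 41.3% and 42.4% in LPS, and 12.0% and 6.22% in PBS lungs. Within them it had 126.9 and 210.4 CPM in SLC+LPS, 320.1 and 341.9 CPM in LPS, and 951.7 and 571.6 CPM in PBS lungs. The 3 groups did not overlap, in the order PBS, LPS and SLC+LPS from high to low. Against PBS, Ccr2 fell by 2.01 ± 0.40 on the log2 scale in SLC+LPS (edgeR adjusted p = 0.0457), where 0.755% of genes in the class passed and 0.178% were lower. The difference of -0.91 ± 0.39 for LPS did not pass (adjusted p = 0.382; -1.08 and 0.262 without LPS 2). The call ended without SLC+LPS 1, PBS 1 or PBS 2 (adjusted p 0.124, 0.512 and 0.389), with a stricter gate margin of 0.2 (0.0641) and with free RNA subtracted (0.174), and the PBS values rest on 90 and 74 cells. An estimated 0.54% to 7.47% of the level was free RNA.

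The thinned share of these cells with a Ccr2 UMI had the same order. It was 7.99% and 8.86% in SLC+LPS, 11.6% and 15.6% in LPS, and 33.3% and 21.6% in PBS lungs. Unthinned, it was 27.6% and 26.8% in SLC+LPS, 33.3% and 57.5% in LPS, and 77.8% and 55.4% in PBS lungs, where the deeper LPS 2 passed PBS 2. In endothelial cells thinned Ccr2 was found in 0% of cells in the 4 treated lungs (which allows up to 1.09% and 4.11% in SLC+LPS and 2.03% and 0.443% in LPS) and in 0.523% and 0.561% in the PBS lungs. In Ly6c2 monocytes and macrophages an exact 95% interval of the thinned share was taken for each lung. From the lowest to the highest end, those of the SLC+LPS lungs spanned 6.26% to 10.4% and those of the LPS lungs 9.88% to 18.2%. The interval was 23.7% to 44.1% in PBS 1 and 12.9% to 32.7% in PBS 2. Natural killer cells carried Ccr2 at 329.7 and 286.4 CPM in SLC+LPS, 221.6 and 695.1 CPM in LPS, and 228 and 273.2 CPM in PBS lungs. T cells carried it at 192.9 and 154.8 CPM in SLC+LPS, 149.6 and 365.5 CPM in LPS, and 325.8 and 282.4 CPM in PBS lungs. LPS 2 was the highest in both lymphocyte classes. SLC+LPS lay above PBS in natural killer cells and below it in T cells, and LPS lay on both sides of PBS in each.

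Ccr1 was carried mostly by neutrophils, which held 63.5% and 56.3% of its UMIs in SLC+LPS, 55.0% and 55.8% in LPS, and 53.4% and 37.4% in PBS lungs. Its whole-lung rise did not have a counterpart in that class. Neutrophil Ccr1 had 467.4 and 539 CPM in SLC+LPS, 516.4 and 504.3 CPM in LPS, and 730.3 and 556.2 CPM in PBS lungs. Both PBS lungs were above all 4 treated lungs, and the log2 difference of LPS from PBS was -0.17 ± 0.33, and -0.36 without LPS 2. The thinned share of neutrophils with Ccr1 was 20.3% and 24.5% in SLC+LPS, 22.7% and 21.5% in LPS, and 30.1% and 25.5% in PBS lungs, against at most 1.03% of endothelial cells. In Ly6c2 monocytes and macrophages it had 122.7 and 216 CPM in SLC+LPS, 208.8 and 266.1 CPM in LPS, and 137.2 and 53.18 CPM in PBS lungs, and did not pass.

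The question put by the design, whether SLC activation changed these genes on top of LPS, gave no called difference. Between SLC+LPS and LPS lungs, edgeR called 0 of 10 members over all kept cells and 0 of 106 pairs of member and class, where it called 0% of all genes over all kept cells and 0.003% in the 12 classes together. DESeq2 called 0 as well. At an unadjusted p under 0.05 there were 1 member over all kept cells and 19 pairs in classes. The share of all genes at that threshold is not given here, so these counts are not read as a result about the members. The member was Ccl2, which was lower by a log2 difference of -0.67 ± 0.23 (adjusted p = 0.922). In C1q macrophages Ccl2 differed by -1.46 ± 0.52 (adjusted p = 0.971) and Ccl12 by -1.06 ± 0.42, and in Ly6c2 monocytes and macrophages Ccl2 differed by -0.89 ± 0.38 and Ccr2 by -1.10 ± 0.39. In Ly6c2 cells neither SLC+LPS lung overlapped the LPS lungs for these 2 genes. The other lower pairs were Ccl12 in Ly6c2 cells (-1.98) and Ccr1 in alveolar (-0.88) and C1q macrophages (-0.71). The remaining pairs were higher. They were Ccl6 and Ccl9 in T, natural killer, B, endothelial and alveolar type 2 cells, Ccl6 in nonclassical monocytes, and Ccl7 in alveolar type 2 cells. Ccl9 in T cells differed by 1.63 ± 0.46 (edgeR adjusted p = 0.942). Without LPS 1, where LPS 2 alone stands for LPS, some class pairs passed, and without LPS 2 none did. The shares of all genes that passed in those fits are not given here. With both LPS libraries, Ccl5 in Ly6c2 monocytes and macrophages passed without SLC+LPS 2 (edgeR adjusted p = 1.09e-05), and with no filter on low counts 4 class pairs passed, among them Ccl2 in C1q macrophages (0.00104) and in fibroblasts (0.0327). The 2 SLC+LPS lungs also differed from each other, by the Ccl5 and Ccl7 values above.

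**Figure D4:**
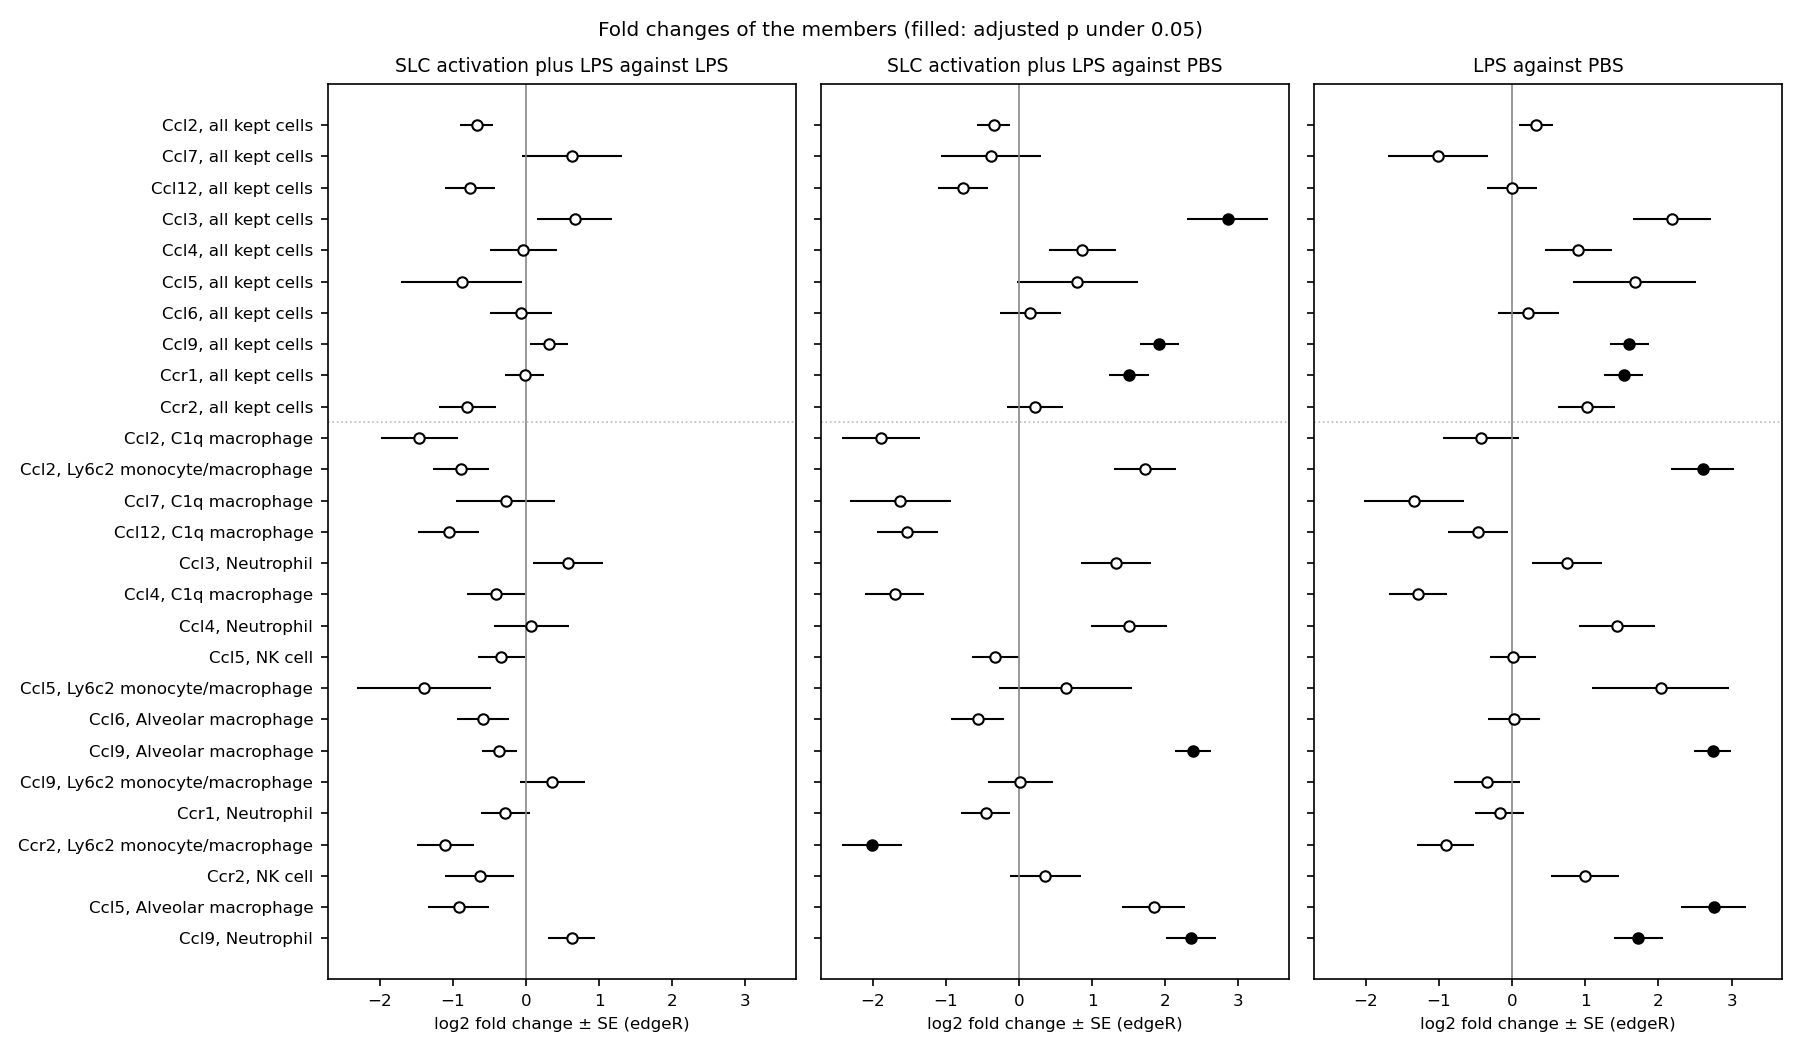
Log2 difference of each gene with its standard error, over all kept cells and in selected classes (log2 axis), for SLC+LPS against LPS, SLC+LPS against PBS, and LPS against PBS, with filled points where edgeR's adjusted p was under 0.05. Ccl9 is filled over all kept cells, in alveolar macrophages and in neutrophils for both comparisons with PBS, and no point is filled for SLC+LPS against LPS.

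Over the 12 classes together, 4 of 106 pairs of member and class passed for LPS against PBS (3.77%), where 0.966% of all genes did, and 3 of 106 (2.83%) for SLC+LPS against PBS, where 0.954% did. Both comparisons share the PBS libraries. The 7 calls concern Ccl9, Ccl2, Ccl5 and Ccr2.

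Of the rest of the CC chemokine network, 34 genes were counted over all kept cells. Among 9 other ligands, 4 were lower in SLC+LPS and 3 in LPS than in PBS lungs and none was higher, with median log2 differences of -2.50 in SLC+LPS and -1.91 in LPS, against -0.01 and -0.02 over all genes. Over all genes 7.17% were lower in SLC+LPS and 3.88% in LPS. Ccl22, which attracts cells with Ccr4 and is made by mature dendritic cells, had 2.66 and 2.01 CPM in SLC+LPS, 2.82 and 2.08 CPM in LPS, and 44.1 and 45.0 CPM in PBS lungs. It fell by 3.88 ± 0.31 in SLC+LPS (adjusted p = 0.0133) and by 3.81 ± 0.31 in LPS (adjusted p = 0.0159). Ccl17, the other Ccr4 ligand, had 5.51 and 4.13 CPM in SLC+LPS, 2.90 and 2.75 CPM in LPS, and 22.5 and 47.4 CPM in PBS lungs, and fell by 2.50 ± 0.42 in SLC+LPS (adjusted p = 0.0261) and by 3.26 ± 0.43 in LPS (adjusted p = 0.0202). The remaining calls among ligands were Ccl1, under 1 CPM in all lungs, in both comparisons, and the eosinophil attractant Ccl11 at 3.60 and 1.26 CPM in SLC+LPS, 3.73 and 7.81 CPM in LPS, and 33.8 and 22.2 CPM in PBS lungs, in SLC+LPS alone (-3.16 ± 0.58, adjusted p = 0.0301, edgeR). Of 8 other receptors 6 could be tested and edgeR called 0, with 0 and 2 at an unadjusted p under 0.05 for SLC+LPS and for LPS against PBS, and 0 and 2 called by DESeq2. Shares of all genes at the unadjusted threshold and by DESeq2 are not given here.

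Among 5 atypical receptors, which do not drive migration themselves, Ccrl2 was higher in both groups and the scavenger Ackr2 was lower in SLC+LPS. Ccrl2 had 1458 and 1013 CPM in SLC+LPS, 1720 and 2103 CPM in LPS, and 331.1 and 516.8 CPM in PBS lungs, with log2 differences from PBS of 1.90 ± 0.31 in SLC+LPS (adjusted p = 0.0252) and 2.54 ± 0.32 in LPS (adjusted p = 0.0193). Ackr2 had 2.20 and 1.34 CPM in SLC+LPS, 3.09 and 6.91 CPM in LPS, and 14.5 and 8.01 CPM in PBS lungs, with -2.30 ± 0.52 for SLC+LPS (adjusted p = 0.0408). Of 12 signalling genes 1 was higher in both groups, namely Rac2, a GTPase of leukocyte migration, with 474.2 and 478.1 CPM in SLC+LPS, 611.8 and 412.7 CPM in LPS, and 263.3 and 214 CPM in PBS lungs. A count of 1 in 12 is near the 12.4% of all genes that passed for SLC+LPS and the 7.84% for LPS. Without LPS 2 the calls of Ccl1, Ccl17, Ccl22, Ccrl2 and Rac2 for LPS remained (adjusted p from 0.0108 to 0.0397). Between SLC+LPS and LPS lungs edgeR and DESeq2 called 0 of the 34 genes, and 1 had an unadjusted p under 0.05. Each of the network calls against PBS ended when PBS 1 or PBS 2 was left out, with adjusted p from 0.124 to 0.259. Those in SLC+LPS also ended without SLC+LPS 1 or SLC+LPS 2, with adjusted p from 0.0706 to 0.205, except that Ccl22 passed without SLC+LPS 1 (0.0464). In LPS, Ccl1 and Rac2 lost their calls without SLC+LPS 1 (0.0644 and 0.0580) or SLC+LPS 2 (0.0625 and 0.0597), and Ccl1 also without LPS 1 (0.0565).

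Across the 12 classes and 6 libraries, genes whose levels followed each member most closely were named by Pearson's r of log2(CPM + 1) over 72 points, among 6441 genes. For the Ccr2 ligands these were Ccl8 (0.789) and Ccl7 (0.787) for Ccl2, Ccl2 (0.787) and Vcam1 (0.768) for Ccl7, and Clec10a (0.742) and Cd163 (0.730) for Ccl12. Ccl3 was nearest to Nlrp3 (0.904) and Ptafr (0.882), Ccl4 to Efhd2 (0.871) and Fcer1g (0.842), and for Ccl5 one of the nearest was Ccr2 (0.834). Ccl6 was nearest to Clec7a (0.892) and Mcemp1 (0.851), Ccl9 to Cd68 (0.881) and Ms4a6d (0.876), Ccr1 to Clec5a (0.875) and Cd33 (0.867), and for Ccr2 the nearest was Ccl5 (0.834). The points of a library share its depth and free RNA, so these are descriptions of likeness. Another member was among the 2 nearest genes only for Ccl2, Ccl7, Ccl5 and Ccr2.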

How the data were processed

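Single cells of mouse lung were captured on BD Rhapsody and sequenced on DNBSEQ-T7, per the labels' protocols. The deposited files hold raw UMI counts per gene and barcode, with no normalization by the authors; build GRCm39 (mm39) is named in the submitters' processing notes, and the aligner, counter and use of strand are not given in the sources used here. A barcode was kept if it had 500 UMIs and 300 genes or more and a mitochondrial share below 20%. A cell entered the class with the largest detected share of its marker list, if at least 2 markers were detected and the lead was at least 0.1; 71.3% to 86.9% of kept cells entered a class, and no doublet caller was run. Library pairs shared 0 to 6 kept barcodes. Counts were summed per library and class and tested with edgeR 4.0.16 (quasi-likelihood, TMM, low counts filtered, all 6 libraries in a fit, group as the only term) in R 4.3.3, over all genes of a class, with Benjamini-Hochberg adjustment and a threshold of 0.05. CPM is per 1000000 UMIs of the class, without TMM factors. DESeq2 1.42.0 was an alternative, beside no low-count filter, a stricter cell filter, other gates, cells with markers of a second lineage left out, free RNA subtracted, the replicate number as a block and each library left out. Free RNA was estimated from barcodes with 1 to 100 UMIs, by 6 epithelial genes found in non-epithelial classes. Shares of cells with a UMI were also computed after thinning to 500 UMIs. The edgeR procedure was tested on simulated data. The rule for named genes took all 10 members, the listed network genes that passed over all kept cells and the 2 genes most like each member, of which an item is not reported here; members, lists and tests were chosen with earlier results of these data known. With 2 mice a group, an exact permutation test cannot go below a two-sided p of 0.333, so the spread was pooled over genes and groups. Depth was 31589233 to 48641470 UMIs per library, and counting error alone does not cover the spread between mice.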

Additional observations from a re-analysis of the deposited data

Results flagged for a closer look

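Ccl2 in SLC+LPS against PBS lungs differed by 1.72 on the log2 scale in Ly6c2 monocytes and macrophages and by -1.88 in C1q macrophages. Both SLC+LPS lungs were above both PBS lungs in the first class and below them in the second. The difference between the classes was not tested.

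Ccl4 in LPS against PBS lungs differed by 0.82 in alveolar macrophages and by -1.29 in C1q macrophages, with both LPS lungs above PBS in the first class and below PBS in the second. In SLC+LPS against PBS lungs Ccl4 differed by 1.51 in neutrophils and by -1.70 in C1q macrophages, again in both mice. These differences between classes were not tested either. None of the 6 values passed edgeR's test in its own class with low counts filtered, group as the only term and all 6 libraries in the fit. With no filter on low counts, Ccl2 passed in edgeR in both of its classes, and Ccl4 passed in neutrophils and C1q macrophages. With the replicate number as a block, Ccl2 passed in Ly6c2 monocytes and macrophages (edgeR adjusted p = 0.0246).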

How the results depend on the processing

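Of 12 member results that passed, 118 of 165 alternatives kept direction and side of the threshold, 47 lost the call and 0 turned. The number of members that passed over all kept cells for LPS against PBS (2) became 7 with no low-count filter, 0 with the replicate block and 0 to 4 with single libraries left out. In classes (4 pairs) it became 7 with DESeq2, 24 with no filter, 2 with free RNA subtracted and 1 to 27 with libraries left out. For SLC+LPS against PBS over all kept cells (3), no filter gave 5, the stricter cell filter 1 and left-out libraries 0 to 3. In classes (3 pairs), DESeq2 gave 14, no filter 24, the replicate block 5, free RNA subtracted 1 and left-out libraries 0 to 29. For SLC+LPS against LPS over all kept cells every alternative gave 0, and in classes (0 pairs) no filter gave 4 and left-out libraries 0 to 33. Without SLC+LPS 2, Ccl5 in Ly6c2 monocytes and macrophages passed in the other direction for SLC+LPS against PBS (-1.92, adjusted p = 0.0275), and over all left-out libraries its log2 difference ran from -1.92 to 1.52. The cause of these changes was not tested. Shares of all genes that passed under each alternative are not given beside these counts. The counts therefore do not show whether members moved more than other genes. A group left with a single library is assumed to vary like the others.

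Replicate numbers recur in each group, but nothing says that they pair mice. Deviations of same-numbered libraries correlated at -0.199 (SLC+LPS and LPS), -0.188 (SLC+LPS and PBS) and 0.0778 (LPS and PBS) over 8296 genes, so the numbers were not taken as pairs. With the block, Ccl9 and Ccr1 over all kept cells had adjusted p of 0.0569 and 0.0616 for LPS against PBS, and Ccr1 had 0.0562 for SLC+LPS against PBS. The stricter cell filter ended the calls of Ccl3 (0.0522) and Ccr1 (0.0580) for SLC+LPS against PBS. Depth limits Ccl2 and Ccr2 in the 90 and 74 Ly6c2 cells of PBS lungs.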

Other observations

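Some values in monocytes and C1q macrophages belong to no result above. Ccl12 in Ly6c2 monocytes and macrophages had 24.37 and 39.48 CPM in SLC+LPS, 34.36 and 184.9 CPM in LPS, and 14 and 4.43 CPM in PBS lungs, with LPS 2 the highest of all, and the log2 difference of 3.81 ± 1.07 for LPS against PBS did not pass (edgeR adjusted p = 0.201). Ccl9 in C1q macrophages had 1007 and 765.6 CPM in SLC+LPS, 630.7 and 1258 CPM in LPS, and 1152 and 1054 CPM in PBS lungs, so the rise seen in alveolar macrophages was not seen there, a difference between classes that was not tested. Ccl3 in C1q macrophages had 1690 and 2948 CPM in SLC+LPS, 2680 and 1318 CPM in LPS, and 4234 and 4398 CPM in PBS lungs, where all 4 treated lungs lay below PBS. Ccr2 in C1q macrophages had 126.8 and 164.6 CPM in SLC+LPS, 335.8 and 154.5 CPM in LPS, and 193.6 and 187.8 CPM in PBS lungs, with LPS on both sides of PBS.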
